A study of Arabidopsis thaliana with 9 samples.

Results

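Between 30 and 60 min after wounding, 61 genes of the Arabidopsis leaf reached mean levels at least 2-fold higher. By 30 min their means, with a small constant added, had risen by under 1.5-fold. They were chosen from the measured values, out of 27206 genes in the count table. Each gene's count was divided by the total count of its library and multiplied by 1e+06 (counts per 1e+06, CPM), and the 3 libraries of a time were averaged. A gene was kept where its mean at 60 min was at least 3 CPM, where that mean was at least 2 times the mean at 30 min and at least 2 times the mean before wounding, and where the mean at 30 min was under 1.5 times the mean before wounding, with 0.5 CPM added to every mean. In genes of low level the added 0.5 CPM shrinks the ratio. AT3G47380 met the limit by 30 min with plain means of 0.969 CPM before wounding and 1.68 CPM at 30 min, which differ by more than 1.5-fold. All 61 genes passed the filter on low counts that left 17622 genes for testing. The levels at all 3 times chose these genes, so their differences are given as a description and no test of them stands as a finding.

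The genes were picked as ones that are switched on late, and most of them do not show that literally. None of the 61 was at or under 3 counts in all 6 libraries taken before 60 min, and 59 had at least 1 count in all 9 libraries. The mean before wounding was at least 1 CPM in 52 of them and at least 5 CPM in 23. For 5 genes, namely PRN, AT5G57480, AT1G10585, LTP2 and RLP6, the mean stayed under 1 CPM both before wounding and at 30 min. They are called late genes here, a name that stands for the limits of the rule and does not mean that their levels were flat up to 30 min.

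The samples were leaves of wild-type plants of Arabidopsis thaliana, ecotype Col-0, the accession of the reference genome, grown in soil under short days. There were 3 biological replicates from before wounding (time 0), 3 from 30 min after wounding and 3 from 60 min after wounding, and polyadenylated RNA was sequenced. The study's title concerns evaporative cooling as a signal for wound healing. The labels name no transgene, mutation or chemical, give neither plant age nor which leaf was taken, and do not say whether a replicate was 1 plant or a pool. They list no unwounded leaves taken at 30 or 60 min and no hour of harvest, so time since wounding and time of day cannot be told apart. In whole leaves, more RNA per cell and more cells of a kind cannot be told apart either. Total counts ran from 14300929 in 30 min replicate 1 to 22970735, so 3 counts, taken as the detection floor, correspond to 0.131 to 0.210 CPM. The leaf label was matched by its markers: the Rubisco small subunit gene RBCS1A lay between 46901 and 74872 CPM in every library, whereas markers of root hair and endodermis, flower and seed reached at most 13 counts in any library.

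A wounded leaf loses water and exposes cell contents, and within minutes calcium and electrical signals and the hormone jasmonate set off a first wave of transcription, rich in genes for transcription factors and for jasmonate synthesis. Later waves are known to include genes that act on the wall, on the surface and on defence: pectin-modifying enzymes and lignin synthesis strengthen the wall, lipid transfer proteins and lipases work on the cuticle and on membrane lipids, and chitinases and lectins bind or break down microbial sugars. Abscisic acid, the hormone of water deficit, and brassinosteroids, which drive cell expansion, also act in leaves that lose water or regrow.

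Across the 61 late genes the median of the means was 3.03 CPM before wounding, 3.14 CPM at 30 min and 11.1 CPM at 60 min. Means at 60 min ran from 3.12 CPM in AT1G52820 to 155 CPM in AT3G49220. The median log2 ratio, with 0.5 CPM added, was 0.11 for 30 min over before wounding, 1.41 for 60 min over 30 min and 1.54 for 60 min over before wounding. Over all tested genes these medians were 0.11, 0.12 and 0.25. Those last values depend on scaling: with TMM factors, which correct for libraries taken up by a few abundant genes, the medians of all tested genes were 0.01, 0.02 and 0.05, and those of the late genes were -0.00, 1.25 and 1.38. At 30 min 37 late genes had a higher mean than before wounding and 24 a lower one. The step from 30 to 60 min was under 3-fold in 38 genes and at least 4-fold in 12.

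**Figure D1:**
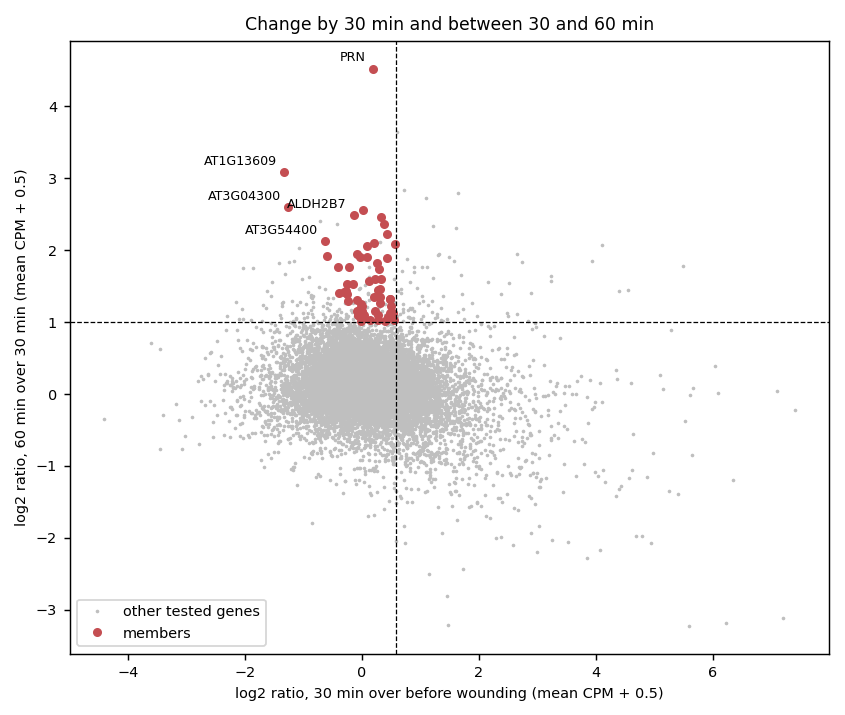
Each point is 1 tested gene, with the log2 ratio of 30 min over before wounding on the x axis and of 60 min over 30 min on the y axis, both from mean CPM plus 0.5. Red points are the 61 late genes, which lie left of the vertical dashed line (a ratio of 1.5) and above the horizontal one (a ratio of 2), as the rule requires. Grey points in the same region are genes that missed another condition of the rule, which is not drawn. PRN stands at the top with a log2 ratio of 4.53, and AT3G04300, AT1G13609 and AT3G54400 lie to the left, with lower means at 30 min than before wounding.

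In single libraries, 51 of the 61 late genes had all 3 values at 60 min above all 3 at 30 min, a pattern found in 12.4% of all tested genes. Against the libraries from before wounding this held for 53, beside 33.8% of all tested genes, and against all 6 earlier libraries for 49, beside 7.84%. The 12 genes whose values at 60 min overlapped an earlier library were WRKY19, KT1, AT2G34010, AT2G47830, KUP10, CYP71A13, AT1G13609, AT2G39920, AT1G20550, AT4G11320, AT5G05250 and AT1G52820. With TMM factors PYL6, AT1G15125 and AT1G77810 overlapped too, which left 46 above all 6 earlier libraries, beside 4.52% of all tested genes. Above 30 min there were then 51, beside 8.18%, and above before wounding 50, beside 24.8%. By edgeR's quasi-likelihood test with Benjamini-Hochberg adjustment over all tested genes, 33 late genes were called higher at 60 min than at 30 min, beside 0.721% of all tested genes. For 60 min against before wounding 53 were called higher, beside 17.1%. The rule used these contrasts, so nothing is read from the counts. For 30 min against before wounding 0 were called higher, beside 14.5% of tested genes, and 2 were called lower, AT3G54400 and AT3G04300, beside 13.4%. At an unadjusted p under 0.05, that contrast gave 1 late gene higher, beside 19.9% of tested genes, and 4 lower, beside 18.6%, and DESeq2 called 0 higher and 2 in all at an adjusted p under 0.05, beside 27.9% of the genes it tested called in either direction. Without before-wounding replicate 1, edgeR called 2 late genes higher and 4 in all for 30 min against before wounding, beside 23.6% of the genes tested called in either direction. With library size alone it called 1 higher and 3 in all, beside 26.4%.

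**Figure D2:**
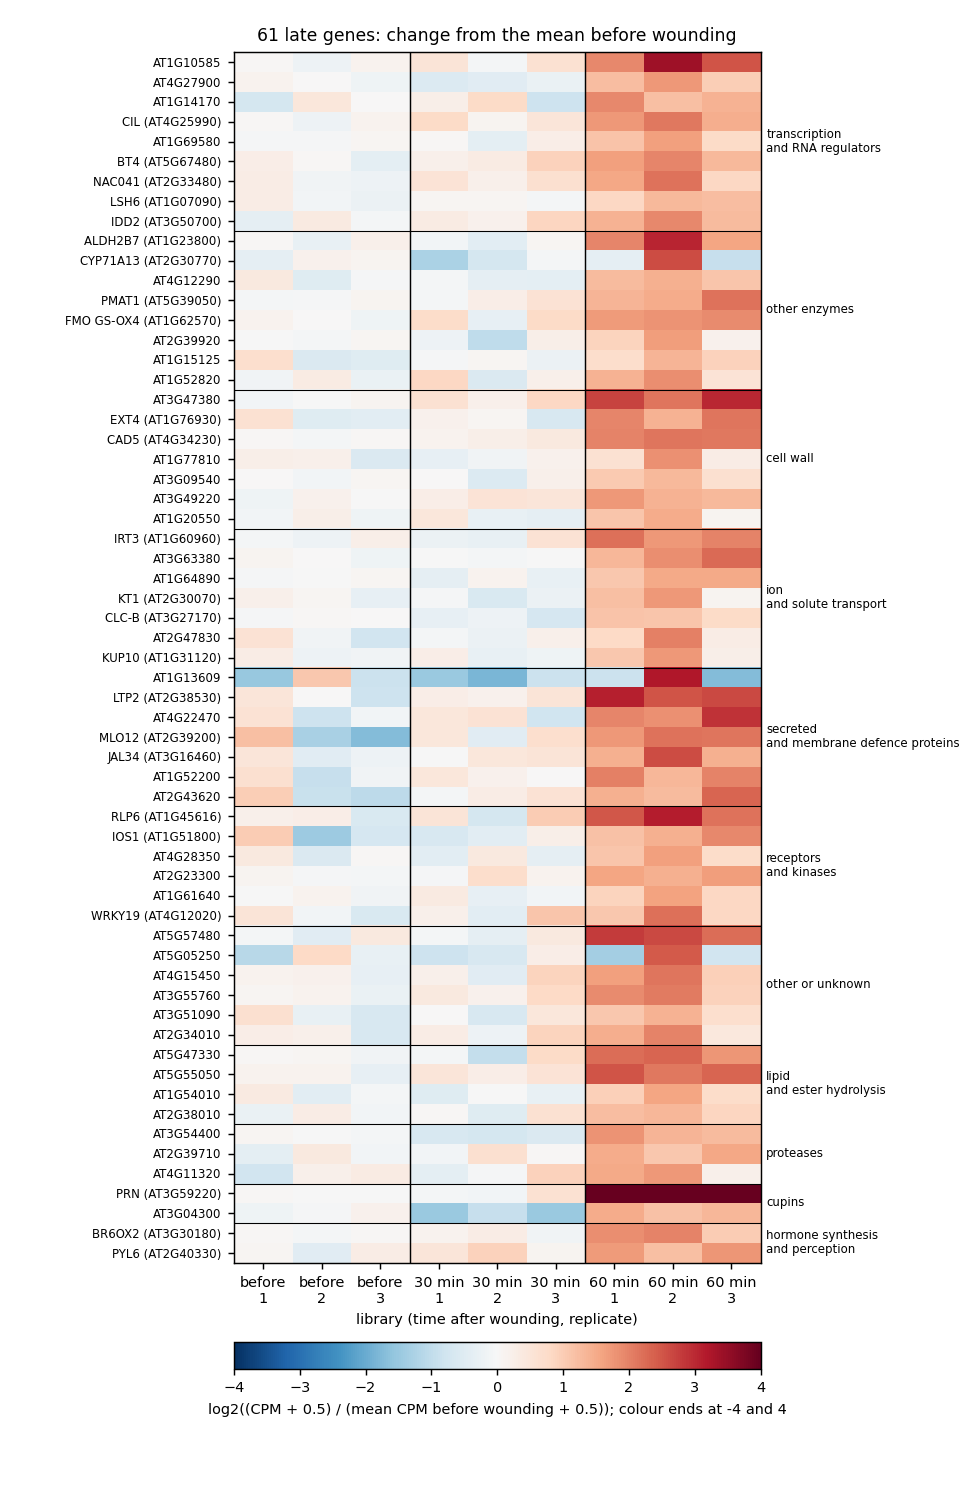
Rows are the 61 late genes, grouped by the role of their product and ordered within a group by level ratio, and columns are the 9 libraries. Colour is the log2 ratio of (CPM plus 0.5) to (mean CPM before wounding plus 0.5), ending at -4 and 4. The 3 columns of 60 min are red in nearly all rows, the 6 earlier columns are pale, and in CYP71A13, AT1G13609 and AT5G05250 only replicate 2 is red among the 3 columns of 60 min, with a paler red in before-wounding replicate 2 for the last 2 genes.

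The widest step belonged to PRN (AT3G59220, chr3:21893812-21895789, plus strand), which encodes a pirin, a cupin-fold protein that binds the alpha subunit of the heterotrimeric G protein and is known from seed germination. PRN had 0.348, 0.308 and 0.312 CPM before wounding, 0.280, 0.265 and 0.758 CPM at 30 min and 20.1, 29.8 and 13.3 CPM at 60 min. All 3 libraries at 60 min lay far above the 6 earlier ones, which sat close to the detection floor. The means of 0.434 ± 0.280 CPM at 30 min and 21.0 ± 8.28 CPM at 60 min (SD, n = 3, as for every mean below) differ 48.4-fold. The other cupin gene, AT3G04300 (chr3:1140129-1141060, plus strand), had 1.09, 1.23 and 1.51 CPM before wounding, 0.140, 0.442 and 0.134 CPM at 30 min and 4.44, 3.49 and 3.96 CPM at 60 min. Its 3 times did not overlap: every library at 30 min was under every library from before wounding, and every library at 60 min was above them. The libraries at 30 min held only 2, 10 and 3 counts for AT3G04300. Replicates 1 and 3 were thus at or under the detection floor of 3 counts, and the size of the dip and of the later step is uncertain. AT3G04300 overlaps the opposite-strand gene AT3G04310, and the labels do not say whether counting used strand. The means of AT3G04310 were 5.82 CPM before wounding, 3.54 CPM at 30 min and 3.93 CPM at 60 min, so it too was lower at 30 min. Its part in the values of AT3G04300 was not tested.

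Both cupin genes, together with AT5G57480 and ALDH2B7, had the widest ratios of 60 over 30 min among the late genes that met the rule with any 1 library left out and whose upstream bases overlap no annotated gene. Their 250 bases before the RefSeq start are therefore shown, on the TAIR10.1 build and 5′ to 3′ on the gene's own strand. Capitals mark matches to the 16 motifs that were searched on both strands.
PRN, chr3:21893562-21893811, plus strand: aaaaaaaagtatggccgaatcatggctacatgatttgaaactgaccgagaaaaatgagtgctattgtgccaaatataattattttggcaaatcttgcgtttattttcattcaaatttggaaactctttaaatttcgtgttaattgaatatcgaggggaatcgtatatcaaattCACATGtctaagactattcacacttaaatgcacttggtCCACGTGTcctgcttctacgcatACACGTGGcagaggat
AT3G04300, chr3:1139879-1140128, plus strand: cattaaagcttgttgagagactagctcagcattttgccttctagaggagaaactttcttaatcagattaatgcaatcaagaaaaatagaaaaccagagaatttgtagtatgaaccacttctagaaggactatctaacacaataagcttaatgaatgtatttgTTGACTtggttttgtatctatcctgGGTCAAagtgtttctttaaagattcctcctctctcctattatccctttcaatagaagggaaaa
AT5G57480, chr5:23281272-23281521, minus strand: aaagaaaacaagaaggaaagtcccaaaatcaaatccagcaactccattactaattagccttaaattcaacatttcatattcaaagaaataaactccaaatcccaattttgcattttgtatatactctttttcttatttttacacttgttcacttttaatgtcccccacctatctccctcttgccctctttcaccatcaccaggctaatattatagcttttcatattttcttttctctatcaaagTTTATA
ALDH2B7, chr1:8414887-8415136, minus strand: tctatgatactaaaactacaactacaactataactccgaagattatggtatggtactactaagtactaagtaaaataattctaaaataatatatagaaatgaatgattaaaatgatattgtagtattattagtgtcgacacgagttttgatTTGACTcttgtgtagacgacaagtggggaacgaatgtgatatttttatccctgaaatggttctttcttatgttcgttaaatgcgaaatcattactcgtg
PRN holds CACGTG, the G-box bound by bHLH and bZIP factors, beginning 38 and again 15 bases before the start. Each copy overlaps a match to ACGTGG and a match to ACGTGT, and a match to CATGTG on the opposite strand begins 77 bases before the start. AT3G04300 holds TTGACT beginning 88 bases before the start and, on the opposite strand, TTGACC beginning at 63 bases, both of which contain the W-box core bound by WRKY factors. ALDH2B7 holds TTGACT at 99 bases, and AT5G57480 holds TATAAA on the opposite strand at 6 bases. These are matches of letters and not measured binding.

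Over the window from 250 bases before to 50 bases after the start, CACGTG was in 8.20% of the 61 late genes and in 7.79% of the 26718 genes of the table with a promoter in the annotation. These 26718, called all below, include genes too low to be tested. Of the 17610 tested genes with a promoter, 9.03% had CACGTG, so the late genes lay under that share. The other motifs lay on the same side of both shares over this window. TTGACT was in 34.4% of the late genes and 21.9% of all, and TGACGT, the core bound by TGA bZIP factors, in 16.4% and 9.22%. ACGTGT, a core of abscisic acid response elements, was in 18.0% and 12.5%, and AATATCT, part of the evening element of clock-controlled promoters, in 19.7% and 11.6%. The shares for TTGACC were 13.1% and 14.1%, for CATGTG 9.84% and 13.0%, for ACGTGG 11.48% and 9.96%, for TATAAA 57.4% and 52.6%, and for TAACTG, a MYB core, 6.56% and 9.33%. The cold response factor motif GCCGAC was in 5 late genes, 8.20% beside 3.29% of all, and its variant ACCGAC in 3, 4.92% beside 5.71%. The ethylene response factor motif GCCGCC was in 2, 3.28% beside 2.55%, and the motif CGCGTT in 3, 4.92% beside 3.42%. The motifs ACCAACC (1 gene, 1.64% beside 3.31%) and CACGCG (1 gene, 1.64% beside 3.19%) make up the 16 searched. Some motifs contain each other's letters, and these shares carry no test. Without the bases after the start, the shares for TATAAA, for GCCGCC and for CGCGTT were lower in the late genes than in all, instead of higher. The share for ACCGAC was then higher instead of lower, with 4.92% beside 4.73%.

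**Figure D3:**
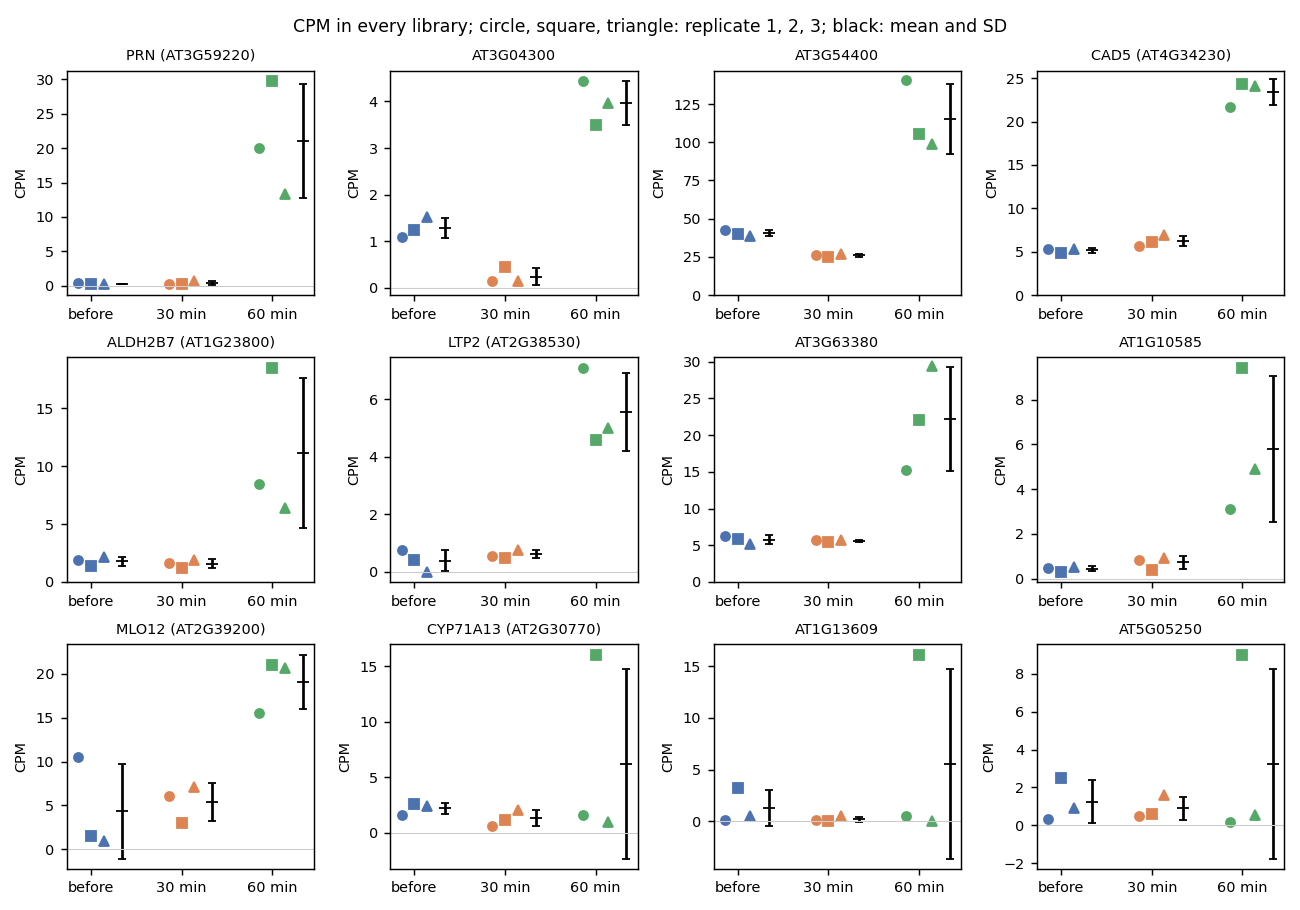
CPM of 12 late genes in every library, with replicate 1 as a circle, replicate 2 as a square and replicate 3 as a triangle, and the mean and SD in black beside each group; each panel has its own axis. In the first 9 panels, from PRN to MLO12, all points at 60 min lie above all earlier points. In the last 3, CYP71A13, AT1G13609 and AT5G05250, only replicate 2 at 60 min is high.

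Cell wall products formed a group of 7 genes, of which 6 had all values at 60 min above all earlier ones. That pattern held in 80.3% of all late genes and 7.84% of all tested genes, so nothing is read from it for a group. The most abundant was AT3G49220 (chr3:18249663-18253911, plus strand), of the pectin methylesterase and inhibitor superfamily, which sets how tightly pectin chains can be linked by calcium. AT3G49220 had 48.7, 62.1 and 54.1 CPM before wounding, 66.4, 80.6 and 76.8 CPM at 30 min and 183, 146 and 137 CPM at 60 min. The values at 60 min were above all earlier ones, and those at 30 min above those from before wounding. With TMM factors the latter 2 times overlapped, with 66.1 CPM in 30 min replicate 1 and 68.2 CPM in before-wounding replicate 2, and the ratio of 60 over 30 min was 1.92, under the limit of the rule. AT3G47380, an inhibitor of the same superfamily, had 0.871, 0.968 and 1.07 CPM before wounding, 1.75, 1.19 and 2.10 CPM at 30 min and 8.98, 5.98 and 11.3 CPM at 60 min. The last 3 values exceeded all others, and the mean was 5.21-fold that at 30 min.

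CAD5 (AT4G34230, chr4:16386631-16388940, minus strand) encodes cinnamyl alcohol dehydrogenase, which makes the alcohols that polymerize into lignin. CAD5 had 5.35, 4.797 and 5.30 CPM before wounding, 5.66, 6.15 and 6.87 CPM at 30 min and 21.7, 24.4 and 24.1 CPM at 60 min. Its means of 6.23 ± 0.605 and 23.4 ± 1.49 CPM at 30 and 60 min differ 3.76-fold, with no overlap. The other main enzyme of that step, CAD4 (AT3G19450), went the other way, from 225 ± 9.53 CPM before wounding to 78.1 ± 8.41 at 30 min and 55.9 ± 4.82 at 60 min (edgeR adjusted p 1.50e-05 and 1.17e-06 against before wounding). EXT4, an extensin that crosslinks into the wall, had 4.92, 2.02 and 2.14 CPM before wounding, 3.50, 3.23 and 1.74 CPM at 30 min and 13.3, 8.79 and 14.9 CPM at 60 min, which puts 60 min above the rest. The remaining 3 genes were the pectin lyase-like AT3G09540, the galactosyltransferase AT1G77810 and the O-fucosyltransferase AT1G20550, with means of 10.4 ± 2.39, 6.34 ± 4.11 and 4.94 ± 2.38 CPM at 60 min. Of this group 3 of 7, namely CAD5, AT3G47380 and EXT4, also met the rule with TMM factors.

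Enzymes that hydrolyse lipids and esters numbered 4, and all 4 had their values at 60 min above every earlier library, beside 80.3% of all late genes and 7.84% of all tested genes. Nothing is read from this for the group. AT1G54010, a GDSL-type lipase also named GLL23, had 41.8, 23.99 and 30.6 CPM before wounding, 22.8, 31.7 and 26.1 CPM at 30 min and 62.3, 96.5 and 54.2 CPM at 60 min. The genes of adjacent locus code, GLL22 (AT1G54000) and AT1G54020, were listed at means of at most 0.157 and 0.242 CPM at any time. A second GDSL-type lipase gene, AT5G55050, had 10.5, 10.3 and 7.39 CPM before wounding, 13.3, 11.4 and 13.9 CPM at 30 min and 56.0, 42.0 and 48.7 CPM at 60 min. The gap between its highest value at 30 min and its lowest at 60 min was wide beside the spread within either time. The alpha/beta-hydrolase gene AT5G47330 had 3.74, 3.87 and 3.20 CPM before wounding, 3.36, 1.64 and 6.55 CPM at 30 min and 18.9, 20.2 and 13.6 CPM at 60 min. AT2G38010, a neutral ceramidase, which frees sphingosine from ceramide, had a mean of 17.2 ± 2.79 CPM at 60 min and 8.16 ± 3.25 CPM at 30 min.

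Among 3 protease genes AT3G54400 (chr3:20140025-20142763, minus strand), an aspartyl protease, had the highest level per transcript length of all late genes, 67.4 ± 13.4 CPM per kb at 60 min. AT3G54400 had 42.9, 40.3 and 38.6 CPM before wounding, 26.0, 24.996 and 26.8 CPM at 30 min and 141, 106 and 98.6 CPM at 60 min. The 3 times were fully separated, with a dip at 30 min before the high values at 60 min. Its mean at 60 min was 4.43-fold that at 30 min and 2.84-fold that before wounding. AT2G39710, another aspartyl protease, reached 4.07 ± 0.783 CPM, and AT4G11320, a papain-type cysteine protease, 4.52 ± 2.35 CPM, the latter with values at 60 min that overlapped both earlier times.

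Secreted and membrane proteins tied to defence numbered 7, and all 7 met the rule with TMM factors too, but none met it with each of the 9 libraries left out in turn. LTP2 (AT2G38530, chr2:16128176-16129399, plus strand) encodes a lipid transfer protein of the epidermis and cuticle. LTP2 had 0.740, 0.396 and 0 CPM before wounding, 0.559, 0.487 and 0.758 CPM at 30 min and 7.09, 4.58 and 4.98 CPM at 60 min. Its levels at 60 min lay well above those of the 6 earlier libraries, 9.23-fold above 30 min in the mean. The closest relative, LTP1 (AT2G38540), was far more abundant and lower after wounding, with 545 ± 16.9, 207 ± 34.5 and 254 ± 58.2 CPM at the 3 times (edgeR adjusted p 3.50e-05 at 30 min and 9.87e-05 at 60 min, against before wounding). AT4G22470, of the protease inhibitor and lipid transfer family, had 1.87, 0.396 and 0.979 CPM before wounding, 1.68, 1.86 and 0.401 CPM at 30 min and 5.61, 5.07 and 11.2 CPM at 60 min.

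JAL34, a jacalin-related lectin, had 18.7, 9.64 and 11.6 CPM before wounding, 13.1, 18.2 and 19.2 CPM at 30 min and 36.4, 83.2 and 36.7 CPM at 60 min. All 3 values at 60 min exceeded the earlier ones, and 53.2% of their sum lay in replicate 2. JAL34 overlaps JR1 (AT3G16470), a jasmonate-inducible lectin on the opposite strand, whose mean was 4.04 ± 0.547, 7.90 ± 1.25 and 14.03 ± 7.53 CPM at the 3 times. MLO12, of the family of membrane proteins that powdery mildew needs to enter cells, had 10.5, 1.45 and 0.935 CPM before wounding, 6.01, 2.96 and 7.13 CPM at 30 min and 15.5, 21.1 and 20.7 CPM at 60 min. The high replicate 1 from before wounding recurred in the chitinase family gene AT2G43620, with 7.05 against 1.58 and 1.34 CPM, and both genes still had their 3 highest values at 60 min. Other MLO genes of the same clade did not follow: MLO2 had means of 36.0, 45.3 and 33.6 CPM and MLO6 of 0.190, 0.709 and 0.538 CPM. The 2 others in this group were AT1G52200, of the PLAC8 family, with a mean of 8.76 ± 2.29 CPM at 60 min, and the defensin-like gene AT1G13609, described below with its uneven replicates.

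Receptors and kinases made up 6 late genes. RLP6, a receptor-like protein with leucine-rich repeats and no kinase domain, had 0.697, 0.748 and 0.178 CPM before wounding, 0.979, 0.133 and 1.61 CPM at 30 min and 5.39, 8.65 and 4.23 CPM at 60 min. Its 60 min values did not overlap the earlier ones, although single values at 30 min rest on few counts. IOS1, a receptor kinase known for its part in oomycete infection and in immune signalling, had means of 3.02 ± 3.11, 2.51 ± 1.01 and 9.71 ± 2.71 CPM at the 3 times, and its 6.57 CPM in before-wounding replicate 1 came near the 7.45 CPM of 60 min replicate 1. The lectin receptor kinase AT4G28350 reached 4.33 ± 1.52 CPM at 60 min, the leucine-rich repeat kinase AT2G23300 reached 3.84 ± 0.418 CPM and the kinase AT1G61640 reached 3.79 ± 1.39 CPM. WRKY19, which joins a WRKY domain to a kinase domain, had 14.1, 31.3 and 11.7 CPM at 60 min, and its 14.4 CPM in 30 min replicate 3 exceeded 2 of these.

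Transporters of ions and solutes numbered 7. AT3G63380 (chr3:23406484-23410360, minus strand), the calcium pump ACA12, which moves calcium out of the cytosol, had 6.27, 5.90 and 5.12 CPM before wounding, 5.66, 5.40 and 5.71 CPM at 30 min and 15.2, 22.1 and 29.4 CPM at 60 min. The 6 earlier libraries lay between 5.12 and 6.27 CPM, under every library at 60 min. IRT3, a zinc and iron transporter of the plasma membrane, had 1.78, 1.58 and 2.31 CPM before wounding, 1.54, 1.46 and 3.08 CPM at 30 min and 10.5, 7.48 and 8.90 CPM at 60 min, with no overlap. The potassium transporters KT1 and KUP10 had means of 15.7 ± 8.10 and 13.4 ± 6.81 CPM at 60 min against 5.49 ± 1.14 and 5.61 ± 1.28 CPM at 30 min, and for each of them 60 min replicate 3, with 7.34 and 6.85 CPM, fell within the range of the earlier libraries. CLC-B, a chloride channel family member, reached 14.2 ± 2.13 CPM. Its relative CLC-A, which loads nitrate into the vacuole, had 88.9 ± 9.22, 66.8 ± 14.1 and 84.1 ± 10.8 CPM at the 3 times (edgeR adjusted p 0.748 for 60 against 30 min). The cation efflux gene AT2G47830 and the major facilitator AT1G64890 reached 13.9 ± 9.16 and 3.94 ± 0.726 CPM. With TMM factors, AT3G63380, IRT3 and AT1G64890 met the rule and the other 4 did not.

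Regulators of transcription and RNA were the largest group, with 9 genes. All 9 had 60 min values above every earlier library, beside 80.3% of all late genes and 7.84% of all tested genes. Nothing is read from this, since WRKY19 and AT2G34010, which were placed in other groups, overlapped earlier libraries. Of the 9 regulators 8 were highest in 60 min replicate 2, beside 63.9% of all late genes and 58.1% of all tested genes. BT4, a BTB and TAZ domain scaffold protein, had 44.1, 37.3 and 27.9 CPM before wounding, 42.3, 46.3 and 69.3 CPM at 30 min and 114, 143 and 89.9 CPM at 60 min. Its paralogs BT1, BT2 and BT5 were at 148 ± 22.3, 128 ± 33.6 and 123 ± 28.1 CPM at 60 min and at 170 ± 51.7, 166 ± 52.0 and 163 ± 24.4 CPM at 30 min, and none of the 3 was called between these times (edgeR adjusted p 0.608, 0.421 and 0.206). BT4 overlaps the formin gene FH6 on the opposite strand, which had 12.1, 30.1 and 42.0 CPM in the mean at the 3 times.

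IDD2, a zinc finger factor of the indeterminate domain family, had 7.88, 13.0 and 9.52 CPM before wounding, 12.9, 11.4 and 18.6 CPM at 30 min and 27.6, 39.6 and 25.3 CPM at 60 min. CIL, a CCT-motif factor, had 7.75, 6.38 and 8.32 CPM before wounding, 13.1, 8.05 and 10.6 CPM at 30 min and 25.8, 34.2 and 21.6 CPM at 60 min. Its paralog CIA2, a factor for genes of chloroplast protein import, fell from 49.6 ± 2.43 to 21.6 ± 1.80 CPM by 30 min (edgeR adjusted p 9.62e-05) and stood at 44.0 ± 11.4 CPM at 60 min (edgeR adjusted p 0.0148 against 30 min and 0.0807 against before wounding). AT1G10585, a bHLH factor, had 0.479, 0.308 and 0.534 CPM before wounding, 0.839, 0.398 and 0.936 CPM at 30 min and 3.10, 9.42 and 4.89 CPM at 60 min, an 8.01-fold step in the mean with no overlap. The remaining 5, with their means at 60 min, were the CCT-motif gene AT4G27900 (14.5 ± 4.15 CPM), NAC041 (12.6 ± 5.84 CPM), the homeodomain-like AT1G69580 (11.1 ± 3.57 CPM), LSH6 (5.64 ± 1.01 CPM) and the KH-domain RNA-binding gene AT1G14170 (3.48 ± 1.05 CPM).

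Hormone genes were 2. BR6OX2 (AT3G30180, chr3:11810726-11813883, plus strand) encodes the cytochrome P450 of the last step to brassinolide, and its means were 5.74 ± 0.281, 6.23 ± 0.959 and 19.4 ± 6.53 CPM in order of time. The 60 min libraries held 22.0, 24.3 and 12.0 CPM, all above the highest earlier value of 7.12 CPM. The paralog BR6OX1 was near the floor throughout, with means of at most 0.133 CPM. PYL6, an abscisic acid receptor, had means of 3.89 ± 1.10, 5.94 ± 1.81 and 12.6 ± 2.73 CPM, and it stood just inside the limit on change by 30 min, with a ratio of 1.47. Its fellow receptors PYL4 and PYL5 were higher already at 30 min, with 157 ± 14.2 to 306 ± 69.7 CPM and 49.5 ± 8.43 to 113 ± 6.55 CPM (edgeR adjusted p 0.0151 and 0.00193), and were called neither way from 30 to 60 min (adjusted p 0.981 and 0.970).

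Other enzymes made a group of 8. ALDH2B7 (AT1G23800, chr1:8412051-8414886, minus strand), a mitochondrial aldehyde dehydrogenase, had 1.87, 1.36 and 2.14 CPM before wounding, 1.61, 1.19 and 1.92 CPM at 30 min and 8.44, 18.5 and 6.41 CPM at 60 min. All 3 of these last values lay above the earlier ones, and replicate 2 was more than the other 2 together. The paralog ALDH2B4 stayed between 124 and 137 CPM in the mean, with an edgeR adjusted p of 0.801 for 60 against 30 min. PMAT1, which malonylates phenolic glucosides, had 8.36, 8.49 and 9.43 CPM before wounding, 8.18, 10.5 and 13.4 CPM at 30 min and 23.2, 25.5 and 41.6 CPM at 60 min. Its relative PMAT2 had means of 10.5, 8.02 and 8.17 CPM. AT1G15125, a methyltransferase family gene, had 30.9, 12.7 and 13.6 CPM before wounding, 18.3, 20.0 and 16.1 CPM at 30 min and 31.6, 49.5 and 36.7 CPM at 60 min, so its lowest value at 60 min was close to replicate 1 from before wounding. FMO GS-OX4, which oxidizes aliphatic glucosinolates, reached 8.59 ± 0.566 CPM at 60 min and the copper amine oxidase AT4G12290 reached 6.95 ± 0.804 CPM. The acid phosphatase AT2G39920 had 5.49 ± 3.04 CPM and the dioxygenase AT1G52820 had 3.12 ± 1.51 CPM, and in both the 60 min values overlapped those at 30 min.

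AT5G57480 (chr5:23279139-23281271, minus strand), a P-loop nucleoside triphosphate hydrolase family gene in the group of other or unknown products, had 0.218, 0.0440 and 0.490 CPM before wounding, 0.210, 0.0885 and 0.490 CPM at 30 min and 4.76, 4.17 and 3.03 CPM at 60 min. The 6 earlier libraries were at 0.490 CPM or under, and at 30 min replicates 1 and 2, with 3 and 2 counts, were at or under the detection floor of 3 counts, so no fold is given. The 3 libraries at 60 min held 106, 92 and 68 counts. AT3G55760, annotated as uncharacterized, had 10.6, 11.2 and 8.37 CPM before wounding, 13.5, 11.5 and 18.0 CPM at 30 min and 38.7, 44.4 and 19.4 CPM at 60 min. AT4G15450, annotated as like a senescence- and dehydration-associated protein, had 7.27, 7.48 and 5.12 CPM before wounding, 7.69, 4.69 and 12.6 CPM at 30 min and 21.8, 30.8 and 13.2 CPM at 60 min. For both genes the lowest library at 60 min was only slightly above the highest at 30 min. AT2G34010, also named TIE4 after TCP-interacting repressors, and AT3G51090, of a family of unknown function, had 15.2 ± 7.84 and 5.72 ± 1.51 CPM at 60 min.

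The late genes did not share 1 pattern over the 3 replicates at 60 min. Replicate 2 was the highest of the 3 in 39 of them, replicate 3 in 12 and replicate 1 in 10, and over all tested genes these shares were 58.1%, 20.7% and 21.2%. Replicate 2 also had the largest TMM factor, 1.20, and after TMM scaling it was highest in 32 late genes and in 40% of all tested genes. The part of this library in the results was not tested beyond leaving it out: 42 genes then met the rule, 35 of them among the 61. Without 30 min replicate 3 the rule found 138 genes, without 60 min replicate 3 it found 108, and with TMM factors it found 40, of which 37 were among the 61. The 3 others were TSA1, NRT1.7 and OPT6. The rule was met with every 1 of the 9 libraries left out in turn by 21 late genes, including PRN, AT3G04300, AT5G57480, ALDH2B7, CAD5, AT3G54400, AT5G55050, AT3G63380, IRT3, EXT4, PMAT1, BR6OX2 and AT1G10585, and 20 of the 21 met it with TMM factors as well.

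**Figure D4:**
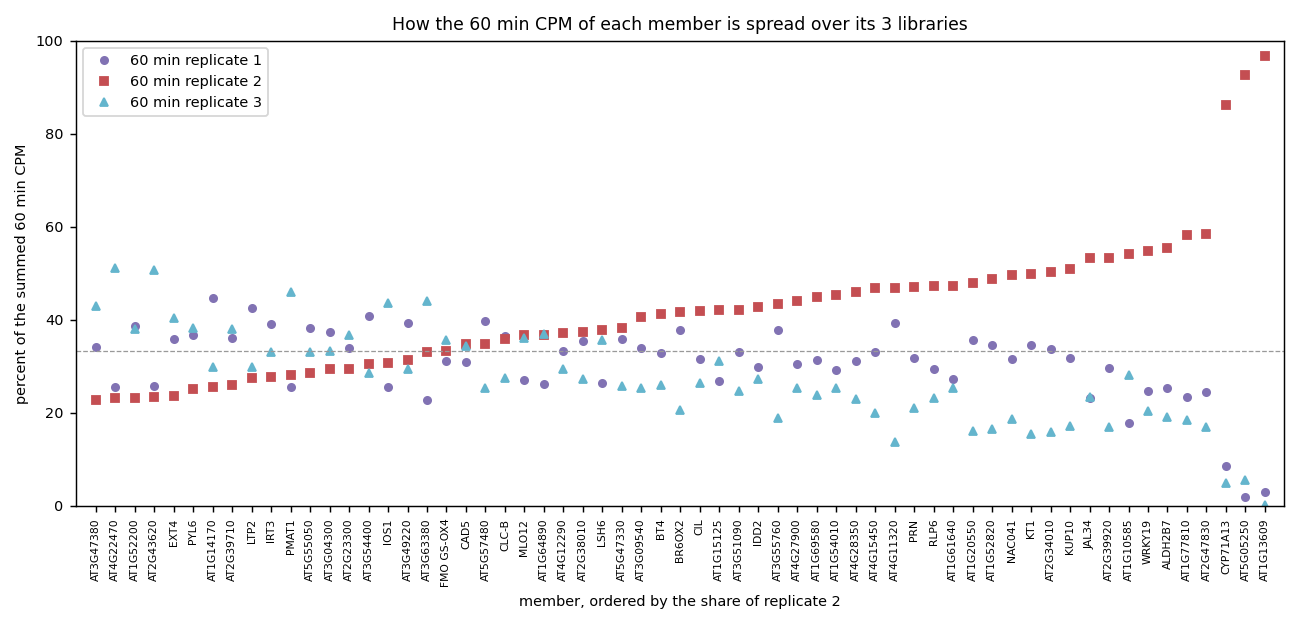
For each late gene, the percent of its summed CPM at 60 min that lies in each of the 3 replicates, ordered by the share of replicate 2; the dashed line marks an equal share. Most points lie between 15% and 60%, and 3 genes at the right, CYP71A13, AT5G05250 and AT1G13609, have over 60% in replicate 2.

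In 3 late genes most of the signal at 60 min came from replicate 2. The defensin-like gene AT1G13609 had 0.131, 3.26 and 0.490 CPM before wounding, 0.140, 0 and 0.490 CPM at 30 min and 0.494, 16.1 and 0.0445 CPM at 60 min. CYP71A13, an enzyme of the route to the antimicrobial camalexin, had 1.61, 2.55 and 2.40 CPM before wounding, 0.629, 1.15 and 2.05 CPM at 30 min and 1.62, 16.0 and 0.934 CPM at 60 min. AT5G05250, of unknown function, had 0.180, 9.02 and 0.534 CPM at 60 min. In each of these 3 the other 2 libraries at 60 min were within or under the range of the earlier ones, so their place on the list rests on 1 library, which held 96.8%, 86.3% and 92.7% of the 60 min sum. CYP71A13 overlaps AT2G30766 on the opposite strand, and reads of the pair cannot be told apart without strand. AT2G30766 was the only one of 17 counted opposite-strand partners of late genes with at least 2-fold between 30 and 60 min. It is known as an iron deficiency gene, and 12 genes of the iron deficiency response, a list made after these values had been seen, were each highest at 60 min in replicate 2. Over all tested genes replicate 2 was the highest at 60 min in 58.1%. Of the 12, 8 were also highest before wounding in replicate 2, beside 22.9% of all tested genes. The summed level of the 12 was 354 CPM in 60 min replicate 2 and 99.3 to 154 CPM in the other 8 libraries. The regulators bHLH38 and BHLH100 had 1.45 and 1.59 CPM in 60 min replicate 2 and 0 in 60 min replicates 1 and 3. The ferric reductase gene FRO3 had 141 CPM against 52.3 and 48.5 CPM. With BTS at 93.1 CPM and OPT3 at 74.9 CPM, FRO3 made up most of the 354 CPM. The part of iron status in the results was not tested. IRT3, named for iron, was highest in replicate 1 at 60 min.

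**Figure D5:**
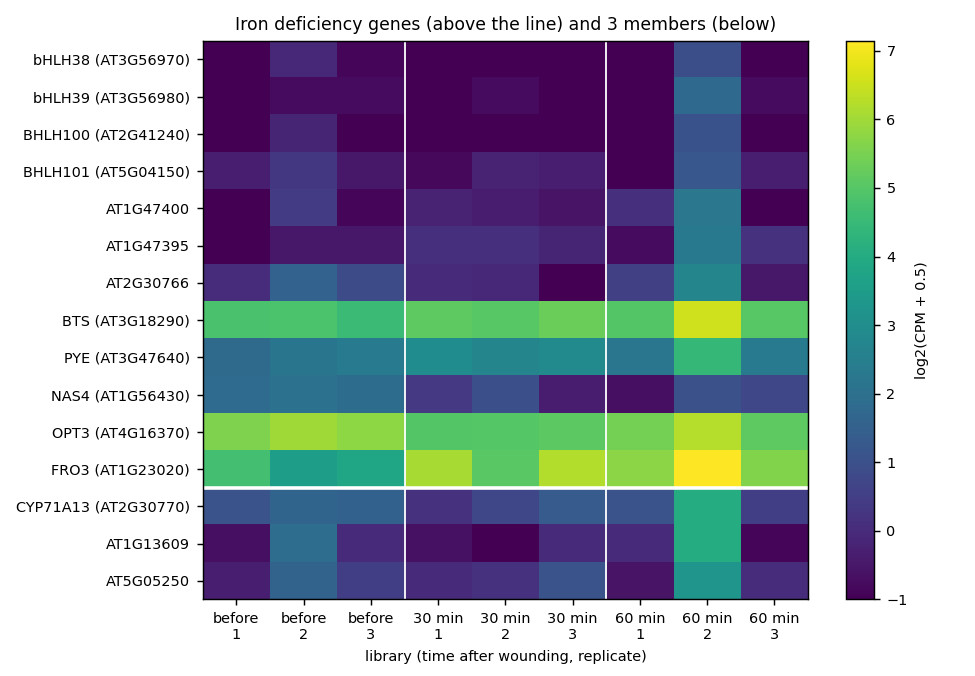
Colour gives log2(CPM + 0.5) in the 9 libraries for 12 iron deficiency genes above the thick white line and for the 3 late genes below it. The column of 60 min replicate 2 is the brightest of the 3 at 60 min in all 15 rows, with the 12 iron deficiency genes summing to 354 CPM in it.

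A second library stood apart in a few late genes. Before-wounding replicate 1 was at least 2-fold above both other replicates in AT1G15125, MLO12, AT2G43620, EXT4, IOS1 and AT3G51090, which is 6 of 61, beside 2.79% of all tested genes. In EXT4 the values were 4.92 against 2.02 and 2.14 CPM. None of the 6 was highest in replicate 1 at 60 min. The summed level of 8 immune response genes, also listed after values were seen, was 88.0 CPM in that library and 61.6 and 68.9 CPM in the other 2 from before wounding. PHI-1 alone gave 71.1 of the 88.0 CPM. PR1 had 0 counts in all 9 libraries, and of the other 7 genes 4 were highest in replicate 1 before wounding and 3 in replicate 3. Over all tested genes, replicate 1 was the highest before wounding in 52.3% and replicate 3 in 24.8%, so nothing is read from these counts. The part of immune response genes in these values was not tested.

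Genes just inside and just outside the limits differed little. At the limit of 3 CPM at 60 min, AT1G52820 with 3.12 CPM and AT5G05250 with 3.24 CPM were inside, and TRM13 with 2.82 CPM and AT1G18020 with 2.77 CPM were outside. For the ratio of 60 over 30 min AT1G20550 with 2.03 and AT2G34010 with 2.03 were inside, and AT2G28140 with 1.997 and PRORP2 with 1.98 were outside. For 60 min over before wounding the ratio was 2.003 in AT1G20550 and 2.03 in CLC-B, inside, and 1.99 in AT1G80450 and 1.96 in PTR1, outside. On the change by 30 min AT3G47380 with 1.48 and PYL6 with 1.47 were inside, and BGLU25 with 1.51 and NRT1.7 with 1.53 were outside. Single conditions kept out 37, 132, 46 and 68 genes that met the other 3.

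Of 151 genes on 13 pathway lists, 105 were tested and 2 were late genes, CAD5 and CYP71A13. On the phenylpropanoid and monolignol list all 15 genes were tested, and 10 were lower and 0 higher at 30 min, and 10 were lower and 1, CAD5, higher at 60 min, against before wounding. The median log2 changes of the list were -0.90 and -1.08. PAL1, the entry enzyme, had 182, 49.1 and 61.3 CPM at the 3 times (edgeR adjusted p 2.58e-06 and 5.65e-06), CCR1, the reductase before CAD, had 33.6, 12.2 and 8.25 CPM (0.000289 and 1.81e-05), and the hydroxylase FAH1 had 113, 44.7 and 66.1 CPM (5.66e-05 and 0.000817). On the camalexin and indole glucosinolate list 5 of 7 genes were tested. CYP79B2 and CYP79B3, which turn tryptophan into the oxime shared by both routes, were called higher at both times, with 2.90, 14.99 and 7.47 CPM and 13.2, 39.9 and 30.6 CPM. CYP83B1, of the glucosinolate branch, was called at 30 min only (adjusted p 0.0256 and, at 60 min, 0.464). PAD3, the last enzyme of camalexin synthesis, was listed at 0 counts in all 6 libraries taken before 60 min and had a mean of 0.0453 CPM at 60 min.

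Other lists held 0 late genes. Beside their counts stand the shares of all tested genes. Against before wounding, 14.5% were called higher at 30 min and 17.1% at 60 min, while 13.4% and then 15.3% were called lower. Nothing is read from counts of 1 or 2 genes in a list. Terpene and other wound volatile synthesis had 4 of 5 tested genes higher at both times, and the wound and regeneration transcription factors had 6 of 7, with median log2 changes of 6.83 at 30 min and 5.78 at 60 min. Jasmonate output and wound defence proteins had 4 of 13 higher and 1 lower at 30 min and 8 higher at 60 min, and cold and dehydration protection had 9 of 13 higher at each time and 1 lower at 60 min. Between 30 and 60 min 2 genes of the jasmonate output list, 5 of the cold and dehydration list and 2 of the transcription factor list were called higher, beside 0.721% of tested genes, without meeting all conditions of the rule. The last list also had 1 gene called lower, RRTF1, beside 1.3% of tested genes. Anthocyanin and flavonoid genes had 0 higher and 5 of 8 lower at each time. Suberin and wax had 1 of 7 higher at each time, and senescence genes had 5 and then 4 of 10 higher and 1 lower at each time. Endoplasmic reticulum chaperones had 2 of 8 higher at each time and 3 and then 2 lower, and glutathione transferases had 2 of 7 higher and 1 lower at 60 min. Phosphate starvation and salicylic acid genes had 0 higher, with 1 of 4 lower at 30 min in the former and 1 and then 2 of 3 lower in the latter.

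The late genes had a median of 4 exons, against 5 in all tested genes, and a median transcript of 1727 bases, against 1765. A single exon was annotated in 18.0% of them and in 14.5% of tested genes. They lay on all 5 chromosomes, with 20 on chromosome 1, 13 each on chromosomes 2 and 3, 9 on chromosome 4 and 6 on chromosome 5. These are 32.8%, 21.3%, 21.3%, 14.8% and 9.84% of them, beside 26.4%, 14.9%, 20.0%, 15.2% and 23.4% of tested genes. No pair of late genes lay within 5 genes of each other. A gene on the opposite strand overlapped 19 of them, and for none were under 90% of the 50-base stretches in its exons unique to it. Levels at 60 min ran from 1.29 CPM per kb in AT2G23300 to 67.4 CPM per kb in AT3G54400, with a median of 5.98.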

How the data were processed

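Polyadenylated RNA of 9 leaf samples was sequenced, 3 before wounding, 3 at 30 min and 3 at 60 min, with libraries from the TruSeq RNA kit per the labels' protocols. The values deposited by the authors are unnormalized counts of reads for every gene and library, all whole numbers. The submitters' processing notes name FastQC 0.11.8, Trimmomatic 0.36, HISAT2 2.2.0, featureCounts and TAIR10, and use of strand is not given in the sources used here. Columns were matched to samples by library name, and 0 columns belonged to no sample. The rule leaves out 1 gene by name, which is not analysed here.

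CPM was the count divided by the column total, times 1e+06. Tests used edgeR 4.0.16 in R 4.3.3 on the counts (TMM factors, filterByExpr, glmQLFit and glmQLFTest, 1 fit to all 9 libraries with time as the only term, two-sided, Benjamini-Hochberg adjusted over 17622 genes, threshold 0.05), and were tested on simulated data. DESeq2 1.42.0 was an alternative, beside other scalings, filters, thresholds, pseudocounts, the replicate number as a block and leaving out each library. With 3 libraries a time, p-values set a difference between times against the spread between libraries, estimated in the fit to all 9. The labels do not say whether a replicate was 1 plant or a pool, so what that spread covers is not known. The detection floor of 3 counts covers counting error only. Gene models, names, coordinates and upstream sequences came from the RefSeq annotation of TAIR10.1, where all 61 genes and 26719 of the 27206 in the table were found by locus code. Level per kb used the annotated transcript.

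The genes, lists, relatives and role groups were chosen with earlier results of these data known, and the role groups after the values were seen. Per-library values are given for the 15 late genes with the highest mean at 60 min, the 15 with the largest ratio of 60 over 30 min and those on a pathway list, and the limiting value for the 2 genes on either side of each limit. Other late genes given so, among them MLO12, WRKY19 and BR6OX2 in part, were chosen after their values were seen.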

Additional observations from a re-analysis of the deposited data

How the results depend on the processing

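The number of genes meeting the rule was 40 with TMM scaling and 33 with a minimum of 10 CPM at 60 min. Leaving out 1 library gave 42 to 138, with 138 without 30 min replicate 3 and 108 without 60 min replicate 3. It was 42 with TMM scaling and without 60 min replicate 2, a setting chosen after seeing the data, and 33 of those 42 were late genes. Of 61 late genes, 33 were called higher at 60 than at 30 min, 19 at a threshold of 0.01, and 17 to 37 with 1 library left out (17 without 30 min replicate 1, 21 without 60 min replicate 1). Of all tested genes, 2.02% were called in either direction in this contrast, and 0.811%, 0.903% and 0.899% under the 3 settings named. Without before-wounding replicate 1, which gave the 37, it was 1.99%. For 60 min against before wounding the counts ran from 39 without before-wounding replicate 3 to 55 without 30 min replicate 3. Of all tested genes 23.6% and 33.9% were called in either direction under these settings. For 30 min against before wounding the counts were 2 to 4, beside 19.4% to 30.3% of all tested genes. The 4, of which 2 were higher, came without before-wounding replicate 1, where 23.6% of all tested genes were called. The median log2 ratio of 60 over 30 min was 1.19 to 1.52 and the number with no overlap 51 to 58, both with 1 library left out and the latter chosen after seeing the data. With all 9 libraries 12.4% of all tested genes had no overlap. That share was not computed with 1 library left out, so nothing is read from the range of 51 to 58. With bases before the start only, late genes with a motif fell from 5 to 2 for GCCGAC, 2 to 1 for GCCGCC, 3 to 1 for CGCGTT and 1 to 0 for CACGCG. Larger counts fell too, from 35 to 26 for TATAAA, 12 to 8 for AATATCT and 10 to 7 for TGACGT. The shares for TATAAA, for GCCGCC and for CGCGTT then lay under those of all promoters instead of above them. For GCCGCC the shares were 1.64% beside 1.85%, and for CGCGTT they were 1.64% beside 2.59%. The share for ACCGAC, with 3 late genes in both windows, then lay above that of all promoters instead of under it, with 4.92% beside 4.73%. The shares for AATATCT and for TGACGT stayed above. Counts fall since the window is shorter. The other causes were not tested. With the replicate number as a block, 24, 49 and 2 late genes were called at 60 against 30 min, 60 min against before wounding and 30 min against before wounding, beside 1.27%, 26.8% and 22.7% of all tested genes. Deviations of same-numbered libraries correlated from -0.365 to 0.156, and those of differently numbered ones from -0.300 to 0.342. With 3 libraries a time these values cannot show whether the numbers pair the samples. At this depth, genes under about 0.2 CPM could not be told from absent.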
